A study of Saccharomyces cerevisiae with 6 samples.

Results

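The 10 genes described here encode enzymes of purine nucleotide synthesis in *S. cerevisiae*, and were chosen by name, with earlier results of these data known. They are *ADE4* (YMR300C), *ADE5,7* (YGL234W), *ADE8* (YDR408C), *ADE6* (YGR061C), *ADE1* (YAR015W), *ADE13* (YLR359W), *ADE17* (YMR120C), *ADE12* (YNL220W), *IMD2* (YHR216W) and *MTD1* (YKR080W), 10 of the 7445 features in the count table. All 10 passed the filter on low counts, which left 6397 features for the test. RNA-Seq was carried out on 3 cultures treated with auxin and 3 treated with a mock, all of strain PDW2798 (W303 background) with *RIO1* fused to an auxin-inducible degron (*RIO1-AID::KanMX4*) and the plant F-box protein OsTIR1 expressed from the *ADH1* promoter (*PADH1-OsTIR1-9myc::URA3*). Both groups therefore carried the degron and OsTIR1, and they differed in whether 500 µM auxin was added to deplete Rio1, a protein kinase. All cultures grew at 25 °C in adenine-supplemented rich medium, YPDA, and the labels give a treatment of 1 h. No culture without the degron was treated with auxin here, so the loss of Rio1 and auxin itself cannot be told apart. The study derives all its yeast strains from W303-1A, which it lists as carrying *ade2-1*, an allele that blocks the route at *ADE2*. For its chromosome loss assay, it calls the parental *RIO1* and *RIO1-AID* strains adenine auxotrophs. The entry for the strain sequenced here names no *ADE2* allele, nor any other mutant allele listed for W303-1A. This omission therefore does not show whether the strain carries *ade2-1*.

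Purines are built stepwise on phosphoribosyl pyrophosphate (PRPP) until inosine monophosphate (IMP) is reached, from where one branch leads to AMP and the other to GMP. In yeast, the transcription factors Bas1 and Pho2 activate most genes of the route when purines are scarce, and adenine in the medium keeps the route low. Folate-bound one-carbon units are used within the route, which ties it to the enzymes of folate metabolism.

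The promoters of these genes are shown first because the known Bas1 recognition sequence, TGACTC, links most of them. In the reference genome (R64, strain S288C, not the W303 strain used), 9 of the 10 genes had this 6-base sequence on either strand within 400 bases before the start codon. Of 6001 promoters of this length, 10.3% had it. The exception was *IMD2*. At least 2 copies were found in 5 of the 10, namely *ADE5,7*, *ADE8*, *ADE1*, *ADE17* and *MTD1*, against 1.08% of all promoters. The longer TGACTCA, which contains the same letters and is recognized by Gcn4, was found in *ADE12* and *MTD1*, and in 3.38% of all promoters. The sequences below come from the genes with a match that moved most in either direction, each read along its gene, with TGACTC or its reverse complement GAGTCA in capitals. The *ADE4* match lay 357 bases before the start codon (chrXIII:867426-867465, minus strand), and the *MTD1* matches at 280 bases (chrXI:590098-590137, plus strand) and 174 bases (chrXI:590204-590243, plus strand).
ADE4: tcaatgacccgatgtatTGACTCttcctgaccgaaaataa
MTD1, distal: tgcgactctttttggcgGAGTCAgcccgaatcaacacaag
MTD1, proximal: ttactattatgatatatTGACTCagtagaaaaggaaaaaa
The *ADE17* matches lay 307 bases (chrXIII:509565-509604, minus strand) and 177 bases (chrXIII:509435-509474, minus strand) before the start codon, and the *ADE12* match 222 bases before it (chrXIV:234174-234213, plus strand).
ADE17, distal: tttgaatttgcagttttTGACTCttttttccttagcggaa
ADE17, proximal: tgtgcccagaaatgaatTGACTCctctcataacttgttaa
ADE12: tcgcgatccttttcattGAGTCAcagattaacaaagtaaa
Genes with these letters thus stood among those that rose as well as those that fell below. They were found in 4 of the 4 genes that rose, in 4 of the 5 that fell and in *ADE8*, which did not pass the test. A match is a stretch of letters and was not tested for binding.

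Between 110119744 and 125303818 counts were assigned per culture. This is several times the number of mapped read pairs per sample that the study reports. The reason is not given, so the counts may not stand for single read pairs. Markers of the *MAT*a mating type averaged between 118.4 and 690.1 CPM (counts per 1000000 of the TMM-scaled total) in auxin-treated cultures, and those of the *MAT*α type between 0.440 and 1.81 CPM. *RIO1* mRNA was at 40.9, 39.4 and 42.7 CPM in the auxin-treated cultures and at 19.8, 21.9 and 22.8 CPM in the mock-treated cultures (log2 fold change 0.93, SE 0.05, adjusted p = 1.8e-07). Since the degron acts on the protein, this level is no check of depletion, for which the study shows a western blot of Rio1-AID.

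With auxin, the purine synthesis mRNAs moved in both directions relative to the mock. *ADE4*, *MTD1*, *ADE1* and *ADE5,7* rose, and *IMD2*, *ADE12*, *ADE17*, *ADE13* and *ADE6* fell. In all, 9 of the 10 passed an adjusted p of 0.05 in edgeR's quasi-likelihood test with Benjamini-Hochberg adjustment over all tested features, as did 77.0% of all features. The 4 that rose compare with 38.5% of all features, and the 5 that fell with 38.5%. With libraries scaled to total counts alone, 6 were called higher and 3 lower, and 79.4% of all called features were higher, against 50.0% under TMM. No member passed a 2-fold change as well, which 10.3% of all features did. The 3 auxin-treated cultures did not overlap with the 3 mock-treated cultures in 9 of the 10 genes, as in 78.6% of all features. These shares lie near those of all features, so the number of changed genes does not set the group apart. The median log2 fold change (auxin over mock) was -0.12, beside 0.00 over all features. In bulk RNA, a change in the share of cells that make an mRNA and a change in the amount per cell cannot be told apart.

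**Figure D1:**
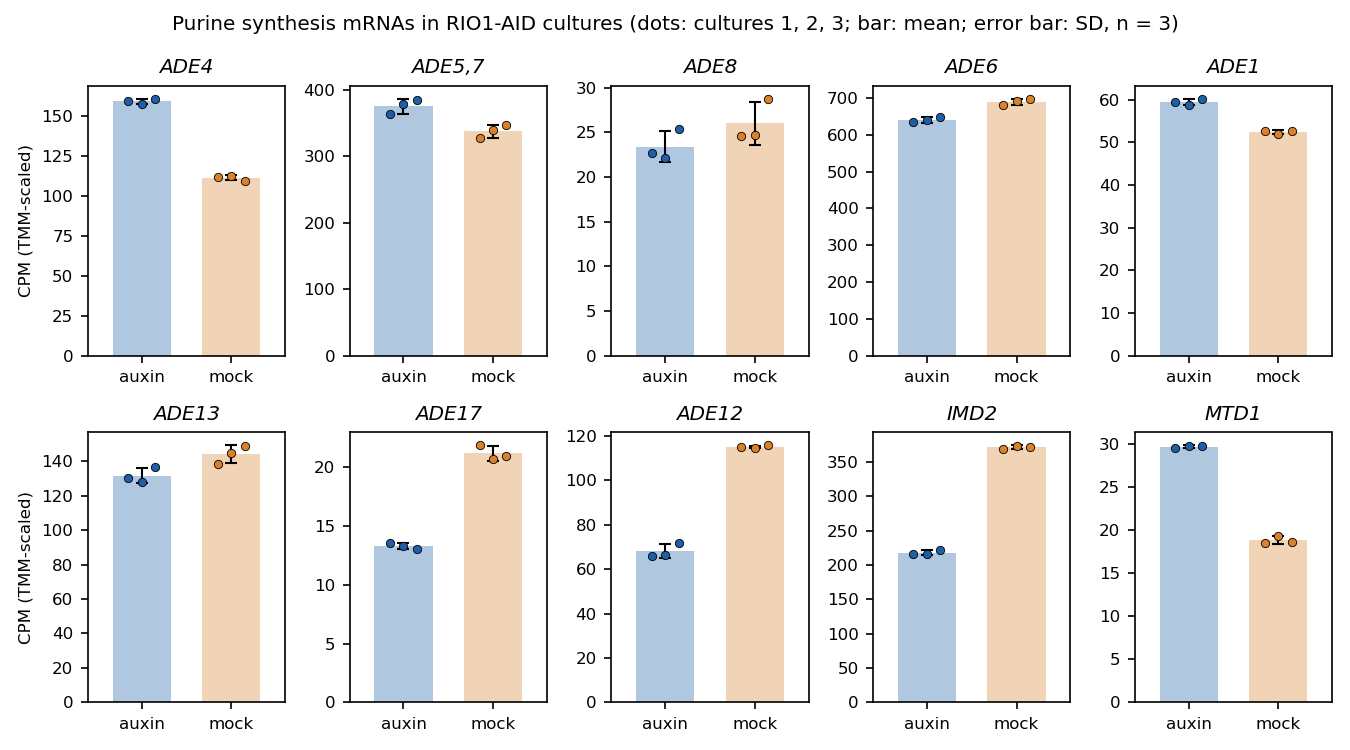
TMM-scaled CPM of the 10 purine synthesis genes, with auxin-treated cultures in blue on the left and mock-treated cultures in orange on the right of each panel. Dots are cultures, bars are means and error bars SD (n = 3). *ADE4* and *MTD1* stand higher and *ADE17*, *ADE12* and *IMD2* lower in all 3 auxin-treated cultures, while *ADE8* overlaps.

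*ADE4*, which encodes the PRPP amidotransferase of the first committed step, is on chromosome XIII (865559 to 867091, minus strand). It was at 159.6, 157.6 and 160.7 CPM in the auxin-treated cultures, against 112.1, 112.8 and 109.6 CPM in the mock-treated cultures. All 3 cultures with auxin were higher, by a gap far wider than the spread within either group. The log2 fold change was 0.51 (SE 0.02, adjusted p = 3.7e-08).

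*ADE5,7* encodes a bifunctional enzyme that makes glycinamide ribotide and, later in the route, aminoimidazole ribotide (chromosome VII, 56482 to 58890, plus strand). Its levels were 363.4, 378.2 and 385.0 CPM with auxin and 327.3, 339.8 and 346.6 CPM with the mock. The groups did not overlap, but the change was small, at a log2 fold change of 0.15 (SE 0.03, adjusted p = 0.0013). *ADE8*, the glycinamide ribotide transformylase (chromosome IV, 1288215 to 1288859, minus strand), was at 22.7, 22.1 and 25.4 CPM with auxin and at 24.6, 24.7 and 28.7 CPM with the mock. Here the highest auxin-treated culture lay above 2 of the mock-treated cultures. The log2 fold change of -0.15 (SE 0.07, 95% interval -0.31 to 0.01) did not pass, with an adjusted p of 0.076. It passed with DESeq2, at an adjusted p of 0.041, and without auxin replicate 3 (-0.21, adjusted p = 0.022) or mock replicate 1 (-0.20, adjusted p = 0.030). With a block for the replicate number in edgeR, *ADE8* passed as well (adjusted p = 0.00090).

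*ADE6* encodes the amidotransferase that yields formylglycinamidine ribotide (chromosome VII, 611889 to 615965, minus strand). It had 633.0, 639.8 and 648.0 CPM in auxin-treated cultures and 679.3, 690.4 and 696.0 CPM in mock-treated cultures. All 3 auxin-treated cultures were lower, and the log2 fold change was -0.10 (SE 0.02, adjusted p = 0.0024). *ADE1*, which makes SAICAR, the intermediate with an added aspartate (chromosome I, 169375 to 170295, plus strand), went the other way. Its 59.5, 58.8 and 60.2 CPM with auxin stood above 52.7, 52.0 and 52.6 CPM with the mock, a log2 fold change of 0.18 (SE 0.02, adjusted p = 8.3e-05). *ADE2*, which lies between both steps and is not among the 10, fell by 0.29 on the log2 scale (adjusted p = 1.2e-04), but did not pass with total counts alone (-0.04, adjusted p = 0.42).

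*ADE13*, the adenylosuccinate lyase (chromosome XII, 844282 to 845730, plus strand), acts both on the way to IMP and in the AMP branch. It was at 130.2, 128.0 and 136.3 CPM with auxin and at 138.2, 144.8 and 148.6 CPM with the mock. The groups did not overlap, though only narrowly, and the log2 fold change was -0.13 (SE 0.03, adjusted p = 0.0061). The sign of *ADE6*, *ADE8* and *ADE13* turned when libraries were scaled to total counts alone, which raised the median log2 fold change of all features by 0.25 (values 0.14, 0.10 and 0.12). *ADE6* (adjusted p = 2.0e-04) and *ADE13* (adjusted p = 0.0095) were then called as higher, and *ADE8* was not called (adjusted p = 0.24).

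*ADE17* and *ADE16* encode isozymes that carry out the last steps to IMP. *ADE17* (chromosome XIII, 507502 to 509280, minus strand) was at 13.5, 13.3 and 13.0 CPM in the auxin-treated cultures, against 21.8, 20.7 and 20.9 CPM in the mock-treated cultures. The log2 fold change was -0.67 (SE 0.04, adjusted p = 2.0e-07), with no overlap. *ADE16*, the more abundant isozyme, fell by 0.65 (SE 0.02, adjusted p = 6.7e-09), with 182.3, 183.7 and 184.8 CPM with auxin and 286.8, 290.9 and 285.1 CPM with the mock. Both isozymes thus fell, and their ratio within each culture overlapped between the groups. It averaged 0.0722 ± 0.0019 with auxin and 0.0735 ± 0.0025 with the mock (SD, n = 3 each). The difference in log2 ratio was -0.03 (exact two-sided permutation test, p = 0.5, where 0.1 is the smallest possible), and it was between -0.05 and -0.00024 when each culture was left out in turn. The genes are 74.8% identical, and no 100-base window of *ADE17* occurs elsewhere in the genome.

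*ADE12* encodes adenylosuccinate synthase, which commits IMP to AMP (chromosome XIV, 234413 to 235714, plus strand). It was at 65.9, 66.5 and 71.7 CPM with auxin and at 114.7, 114.5 and 115.7 CPM with the mock. The log2 fold change was -0.76 (SE 0.03, adjusted p = 3.5e-08), and no culture of one group came near the other. *IMD2*, an IMP dehydrogenase that commits IMP to GMP (chromosome VIII, 554396 to 555967, plus strand), was at 215.5, 216.3 and 222.5 CPM with auxin and at 368.5, 374.1 and 371.9 CPM with the mock. Its log2 fold change of -0.77 (SE 0.02, adjusted p = 3.9e-09) was the lowest of the 10. *ADE12* and *IMD2*, which act at the exits from IMP, were therefore both lower with auxin.

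The paralogs of *IMD2* were each measured apart, and the differences between their fold changes were not tested. *IMD3* fell by 0.55 (SE 0.03, adjusted p = 1.3e-07), and its level per length was above that of *IMD2* in both groups. *IMD4* had a log2 fold change of 0.04 (SE 0.03, adjusted p = 0.35) and overlapped between groups, although it passed with total counts alone (0.29, adjusted p = 8.3e-06), and *IMD1* averaged 0.111 CPM with auxin and 0.116 CPM with the mock (adjusted p = 0.84). Within each culture, *IMD2* over the sum of *IMD3* and *IMD4* was 0.159 ± 0.0019 with auxin and 0.222 ± 0.0064 with the mock (SD, n = 3 each). The groups did not overlap, with a difference in log2 ratio of -0.48, and the exact two-sided permutation test gave p = 0.1, the smallest that 3 against 3 cultures allow. *IMD2* is 88.9% identical to *IMD3* and 79.3% to *IMD4*. Of its 100-base windows, 9.30% occur elsewhere in the genome, beside 2.72% of those of *IMD3* and 2.12% of those of *IMD4*. Where the other copies lie was not recorded. Reads from these windows could be lost or placed on another gene, so the counts of these genes are uncertain at least to that extent. The snoRNA gene *SNR54* lies within *IMD4*. *GUA1*, the GMP synthase that follows IMP dehydrogenase, rose by 0.32 (SE 0.04, adjusted p = 5.0e-05).

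*MTD1* encodes the cytoplasmic NAD-dependent methylenetetrahydrofolate dehydrogenase, an enzyme that interconverts one-carbon units (chromosome XI, 590395 to 591357, plus strand). Its 29.5, 29.7 and 29.7 CPM with auxin stood above 18.5, 19.3 and 18.6 CPM with the mock. The log2 fold change of 0.66 (SE 0.03, adjusted p = 7.0e-08) was the highest of the 10. *ADE3*, the trifunctional enzyme that handles the same folate carriers in the cytoplasm, fell by 0.69 (SE 0.03, adjusted p = 2.0e-08), at 483.7, 504.6 and 501.6 CPM with auxin and 812.7, 812.5 and 779.8 CPM with the mock.

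**Figure D2:**
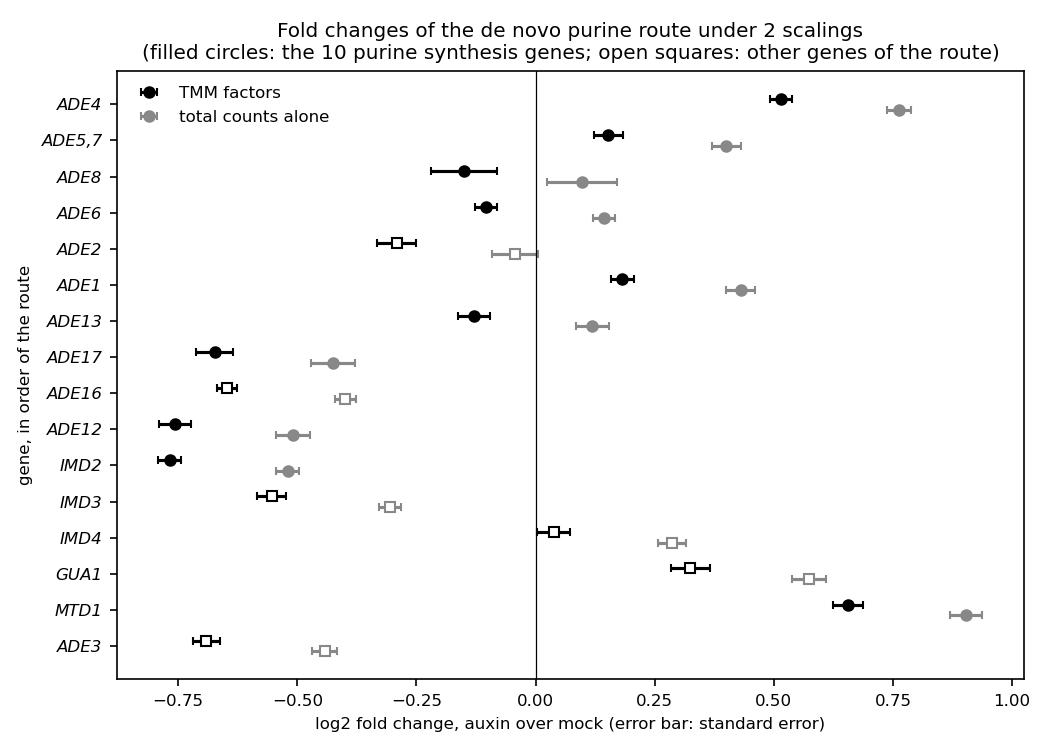
log2 fold changes (auxin over mock, x axis) of the 10 genes (filled circles) and of other genes of the route (open squares) in pathway order, under TMM factors (black) and total counts alone (grey); bars are standard errors. *ADE4* and *MTD1* lie above 0 and *ADE17*, *ADE12* and *IMD2* below it under both scalings, while *ADE6*, *ADE8* and *ADE13* change sides.

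The levels per kilobase of gene spanned more than an order of magnitude, and their order changed. In auxin-treated cultures the order was *ADE6* (157.0 CPM per kilobase), *ADE5,7* (155.9), *IMD2* (138.8), *ADE4* (103.9), *ADE13* (90.8), *ADE1* (64.6), *ADE12* (52.3), *ADE8* (36.3), *MTD1* (30.8) and *ADE17* (7.45). *ADE6* and *ADE5,7* overlapped there, and no other neighbours in that order did. In mock-treated cultures *IMD2* stood at the top with 236.3 CPM per kilobase, followed by *ADE6* (168.9), *ADE5,7* (140.3), *ADE13* (99.3), *ADE12* (88.3), *ADE4* (72.7), *ADE1* (56.9), *ADE8* (40.3), *MTD1* (19.5) and *ADE17* (11.9). No neighbours overlapped in the mock-treated cultures. *ADE4* thus stood above *ADE13* and *ADE12* with auxin, and below both with the mock.

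**Figure D3:**
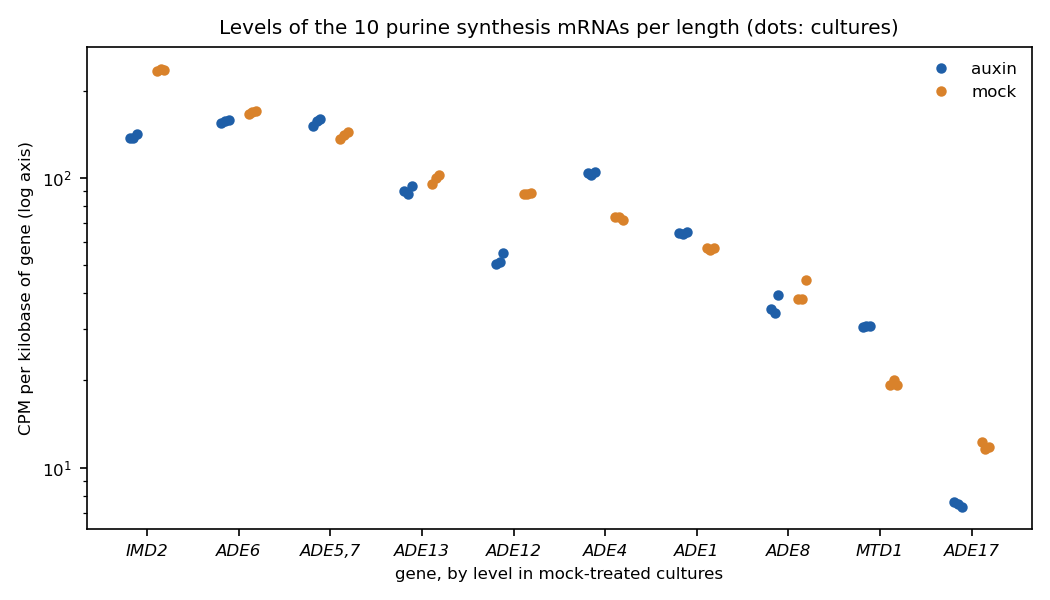
CPM per kilobase of gene (log axis) of the 10 genes, ordered by their level in mock-treated cultures; dots are cultures, auxin in blue and mock in orange. *IMD2* is the highest with the mock (236.3) and the third with auxin (138.8).

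Shares of the summed level per length do not depend on how libraries were scaled. *IMD2* made up 16.6% ± 0.046 of the sum over the 10 genes in auxin-treated cultures and 25.3% ± 0.27 in mock-treated cultures (SD, n = 3 each). *ADE4* made up 12.4% ± 0.19 with auxin and 7.79% ± 0.21 with the mock, and *ADE12* 6.24% ± 0.17 with auxin and 9.45% ± 0.11 with the mock. The shares of *ADE6* and *ADE13* differed less, at 18.7% ± 0.18 and 10.8% ± 0.17 with auxin and 18.1% ± 0.040 and 10.6% ± 0.24 with the mock. A ratio chosen after the values were seen restates the counts of *ADE4* and *ADE12* and adds no separate evidence. *ADE4* over *ADE12* was 2.34 ± 0.093 with auxin and 0.970 ± 0.020 with the mock (SD, n = 3 each; no test), and *ADE12* over *GUA1*, chosen likewise, was 0.0628 ± 0.0018 with auxin and 0.133 ± 0.0075 with the mock. The summed CPM of the 10 genes does depend on the scaling. It was 1719 ± 30.7 with auxin and 1887 ± 26.4 with the mock under TMM, a ratio of 0.911, and 1873 ± 32.2 with auxin and 1731 ± 29.5 with the mock under total counts alone, a ratio of 1.08.

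**Figure D4:**
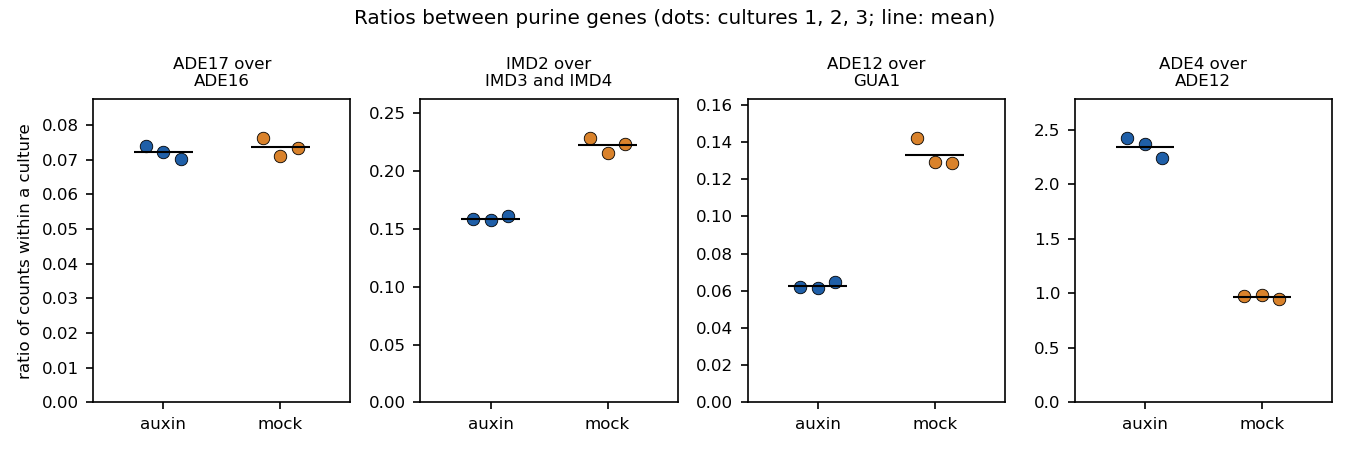
Ratios of counts within each culture (y axes from 0), auxin in blue on the left and mock in orange on the right; dots are cultures and lines means. *ADE17* over *ADE16* overlaps between groups, whereas *IMD2* over *IMD3* and *IMD4* is lower, and *ADE4* over *ADE12* higher, in all 3 auxin-treated cultures.

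The rest of the route and its neighbours also moved in both directions. Of the other 7 genes of the route, 1 rose (*GUA1*) and 4 fell (*ADE3*, *ADE16*, *IMD3* and, under TMM but not with total counts alone, *ADE2*). The counts by list that follow stand beside 77.0% of all features called, 38.5% higher and 38.5% lower. Of the regulators, *BAS1* rose by 0.27 (SE 0.03, adjusted p = 4.7e-05), while *PHO2* fell by 0.31 (SE 0.03, adjusted p = 1.0e-05) and *GCN4*, the activator of amino acid synthesis, fell by 0.37 (SE 0.03, adjusted p = 2.2e-06). With total counts alone *PHO2* no longer passed (-0.06, adjusted p = 0.16). These are levels of mRNA, and the amounts of the factors were not measured here.

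Of the 5 genes for PRPP synthetase subunits, 3 rose and 2 fell, between *PRS2* (log2 fold change 0.42, adjusted p = 3.2e-07) and *PRS1* (-0.13, adjusted p = 0.015). The call of *PRS1* was lost without auxin replicate 1 (adjusted p = 0.054), auxin replicate 2 (0.050) or mock replicate 2 (0.055), and its sign turned with total counts alone (0.12). All 17 genes of purine salvage and interconversion passed, 5 higher and 12 lower, with a median of -0.17. Of these, 12 were called with total counts alone, 14 with upper-quartile factors and 14 to 16 when a culture was left out. The highest was *FCY22*, which encodes a putative purine-cytosine permease, at 19.2 ± 0.42 CPM with auxin and 7.15 ± 0.017 CPM with the mock (log2 fold change 1.43, adjusted p = 3.3e-09), and the lowest was *YNK1*, the nucleoside diphosphate kinase (-0.72, adjusted p = 7.0e-05). *AAH1*, the adenine deaminase, named after its values were seen, was the only other gene of this list past 2-fold (253.4 ± 5.66 CPM with auxin and 119.4 ± 4.62 CPM with the mock, log2 fold change 1.09).

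Among 13 genes of one-carbon and folate metabolism, 3 rose and 8 fell, from *FOL1* of folate synthesis (log2 fold change 0.47, adjusted p = 1.2e-07) to *DFR1*, the dihydrofolate reductase (-1.33, adjusted p = 2.4e-09). *MET13*, a methylenetetrahydrofolate reductase named after its values were seen, was the other gene past 2-fold there (-1.06). Histidine synthesis, which uses PRPP and releases the purine intermediate AICAR, had 6 of 7 genes lower and none higher, with a median of -0.41, against 38.5% of all features lower. *HIS4* had the lowest value (-1.39, adjusted p = 4.4e-09) and *HIS5* the smallest called change (-0.27, adjusted p = 1.0e-05), although *HIS5* no longer passed with total counts alone (-0.02, adjusted p = 0.60). *HIS3* is among the genes called lower, and the study lists a mutant *his3* allele for the parent of its yeast strains. The list may therefore include a mutant locus. Of 9 pyrimidine genes, 3 rose and 5 fell, from *URA7*, a CTP synthase (0.75, adjusted p = 5.8e-08), to *URA2*, the enzyme of the first steps (-0.44, adjusted p = 2.0e-07). The 8 calls of that list became 5 with total counts alone and 6 to 9 when a culture was left out. *URA3* in that list is also the marker of the OsTIR1 cassette.

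**Figure D5:**
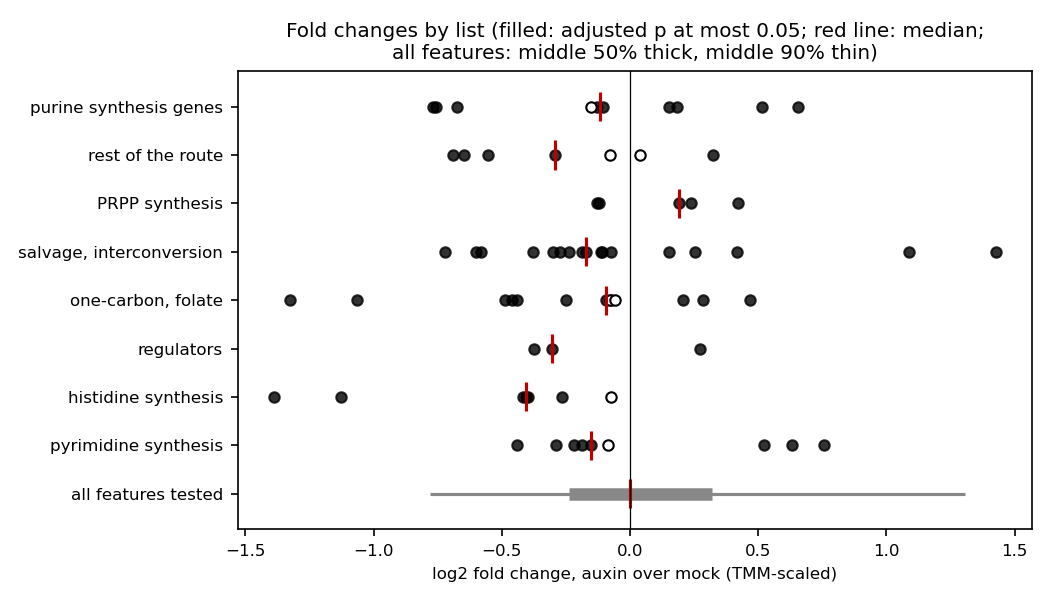
log2 fold changes (auxin over mock, x axis) of the 10 genes and of related lists; filled dots passed the adjusted p, open dots did not, red lines are medians. The bar for all features shows the middle 50% (-0.24 to 0.32, thick) and 90% (-0.78 to 1.31, thin), and the 10 purine synthesis genes all lie within the 90% range.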

How the data were processed

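The authors removed rRNA with QIASeq FastSelect, made strand-specific libraries, filtered reads with Trimmomatic, aligned them with STAR to R64 (sacCer3) and deposited whole-number counts per gene, without normalization. The STAR version and the annotation release are not given in the sources used here. The libraries carried molecular identifiers, and whether duplicates were removed is not stated. Every column was assigned to a culture by its name. The labels' protocol field names auxin for mock cultures too, so groups came from the treatment field. The study's methods describe auxin depletion as 500 µM followed by a lower dose within the same hour.

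Counts were fitted over the whole table with edgeR 4.0.16 in R 4.3.3 (filterByExpr, TMM factors, quasi-likelihood F test, treatment as the only term), with Benjamini-Hochberg adjustment over 6397 features. Calls needed an adjusted p of at most 0.05. CPM are counts per 1000000 of TMM-scaled totals. Ratios were compared with exact permutation tests over cultures (scipy 1.17.1). Sequences and coordinates come from the RefSeq copy of R64, which does not list *IMD1* by its tag. The common biological coefficient of variation was 3.78%. The chi-square between replicates was 6.30 to 35.4 per degree of freedom. Since the counts may not stand for single read pairs, these values cannot show whether any library duplicates another. The labels call the replicates biological repeats. The fit was tested on counts simulated from its own model. Of 50 genes changed by 1.25-fold, 46 were recovered, and all 50 at each of 1.5-fold, 2-fold and 4-fold. There were 14 false calls among 6373 features. Far fewer genes were changed there than were called in the data, so the simulation does not test the scaling of libraries.

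As alternatives, DESeq2 1.42.0 replaced edgeR, TMM was replaced by RLE, by upper-quartile factors or by total counts, the filter was dropped or set to 10 counts in every culture, a block for the replicate number was added, and single cultures were left out. The genes named are the 10 members, the 7 other genes of the route, *BAS1*, *PHO2*, *GCN4*, *RIO1*, and the highest and lowest called log2 fold change in each other list, and others are marked. Members and lists were chosen with earlier results of these data known.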

Additional observations from a re-analysis of the deposited data

How the results depend on the processing

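Across 13 alternatives, 7 of the 10 genes (*ADE4*, *ADE5,7*, *ADE1*, *MTD1*, *ADE17*, *ADE12* and *IMD2*) kept their direction throughout. Of 130 fold changes of the 10 genes under an alternative, 127 kept the direction and 123 the direction and the call. The alternatives moved fold changes by a median of -0.0095 to 0.25. The small rises of *ADE5,7* and *ADE1* were thus not tested against a downward shift as large as the upward one. Scaling to total counts alone had the strongest effect. It put 79.4% of called features on the higher side, against 50.0% under TMM, reversed *ADE8* (0.10), *ADE6* (0.14), *ADE13* (0.12), *IMD1* (0.17) and *PRS1* (0.12), gave 6 purine synthesis genes called higher and 3 lower, with *ADE6* and *ADE13* among the higher, and left 5 pyrimidine and 12 salvage genes called. The ratio of summed CPM, an alternative chosen after seeing the data, became 1.08. *ADE2* then no longer passed (-0.04) and *IMD4* did (0.29). The cause was not tested.

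Leaving out each culture in turn gave 4 purine synthesis genes higher every time, 5 to 6 lower and 0 past 2-fold. The log2 fold change of *IMD1* then ran from -0.34 to 0.22, turning positive without auxin replicate 2 (0.06) and mock replicate 2 (0.22), and that of *IMD4* from -0.00247 (without mock replicate 1) to 0.062 (without mock replicate 2).

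With the replicate number as a block, 4 purine synthesis genes were higher and 6 lower, since *ADE8* passed (-0.15, adjusted p = 0.00090). Same-numbered cultures deviated together with correlations of 0.16, -0.03 and 0.25, and differently numbered cultures with -0.26 to 0.13. These values do not settle whether the numbers mark pairs. The main fit had no block, and the call of *ADE8* depends on that choice.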
